A study of Mus musculus with 6 samples.

Results

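The Ms4a genes encode small proteins that cross the cell membrane several times and sit on different classes of blood cell. Here 8 of them (Ms4a1, Ms4a4b, Ms4a4c, Ms4a4d, Ms4a6b, Ms4a6c, Ms4a6d and Ms4a7) were described in thymic lymphomas of Ikaros-deficient mice. Every probe set whose only platform gene symbol was 1 of these 8 names was taken, which gave 16 of the 45101 probe sets of the array and 8 of its 18193 named genes. The genes had been picked with the difference between the genotypes already known, so that difference is given for them as a description, with no test and no p-value.

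RNA of 6 primary tumours was hybridised to Affymetrix mouse arrays, 1 array per tumour. Each tumour came from a different mouse, and the labels do not give the litters. The Notch1f/f genotype was IkL/L Notch1f/f CD4-Cre+, with 3 tumours from mice aged 8 to 10 weeks, in which the labels describe a deletion of the Notch1 promoter and exon 1. The Notch1+/+ genotype was IkL/L Notch1+/+ CD4-Cre+, with 3 tumours from mice aged 18 to 20 weeks. All 6 tumours were homozygous for the IkL allele, which lowers Ikaros, a transcription factor of lymphoid cells, and all carried the CD4-Cre transgene, whose recombinase is made in T lineage cells. Age and genotype changed together and cannot be told apart. The tumour cells were collected by disrupting the tissue, with no sort named, so other cells of the thymus could be in the RNA, and in bulk RNA fewer cells of a type and less RNA per cell cannot be told apart.

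In mice and humans most of the family lies in 1 gene cluster, and its members are known as markers of separate blood lineages. Ms4a1 encodes CD20, the B cell protein that therapeutic antibodies such as rituximab bind. In mouse, Ms4a4b and Ms4a6b are expressed in T cells, where their proteins are known to associate with GITR, a co-stimulatory receptor encoded by Tnfrsf18. Ms4a6c, Ms4a6d and Ms4a7 are known mainly from monocytes and macrophages, and Ms4a2, which is not among the 8, encodes the beta chain of the high-affinity IgE receptor of mast cells.

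The RefSeq gene table placed all 8 genes on mouse chromosome 19, in the order Ms4a1, Ms4a7, Ms4a4c, Ms4a4b, Ms4a6c, Ms4a6b, Ms4a4d and Ms4a6d. Upstream sequences were available for 6 of them. Those of Ms4a4b and Ms4a4c, and those of Ms4a6b and Ms4a6c, are shown because each pair is alike upstream. They are the 250 bases before the annotated gene start, 5′ to 3′, from RefSeq (GRCm38.p6), with the 6-letter motif GGAAGT, which holds the GGAA core of ETS family motifs, in capitals wherever it occurs on either strand (ACTTCC on the other).
Ms4a4b (chr19:11443308-11443557, + strand): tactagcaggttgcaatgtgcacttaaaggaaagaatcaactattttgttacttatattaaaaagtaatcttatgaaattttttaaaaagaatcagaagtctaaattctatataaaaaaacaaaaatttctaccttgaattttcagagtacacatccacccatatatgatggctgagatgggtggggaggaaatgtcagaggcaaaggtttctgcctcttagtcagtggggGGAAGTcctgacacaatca
Ms4a4c (chr19:11407411-11407660, + strand): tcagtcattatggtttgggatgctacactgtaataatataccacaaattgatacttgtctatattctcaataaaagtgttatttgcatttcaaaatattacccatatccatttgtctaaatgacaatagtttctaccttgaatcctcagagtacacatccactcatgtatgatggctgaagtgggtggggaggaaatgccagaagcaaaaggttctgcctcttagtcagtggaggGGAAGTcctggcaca
Ms4a6b (chr19:11518309-11518558, + strand): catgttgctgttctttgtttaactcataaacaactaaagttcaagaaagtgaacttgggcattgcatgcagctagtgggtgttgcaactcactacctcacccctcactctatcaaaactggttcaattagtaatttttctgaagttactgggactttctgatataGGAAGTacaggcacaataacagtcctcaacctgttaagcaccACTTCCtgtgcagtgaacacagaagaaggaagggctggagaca
Ms4a6c (chr19:11469118-11469367, + strand): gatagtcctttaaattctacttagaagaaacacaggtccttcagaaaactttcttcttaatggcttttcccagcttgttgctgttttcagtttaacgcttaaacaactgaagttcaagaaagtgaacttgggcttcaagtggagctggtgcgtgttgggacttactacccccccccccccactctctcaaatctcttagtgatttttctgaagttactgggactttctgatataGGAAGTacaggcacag

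The best local alignment of the Ms4a4b and Ms4a4c sequences covered 133 columns, of which 117 (88%) were identical. That of Ms4a6b and Ms4a6c covered 178 columns, of which 145 (81.5%) were identical. No other pair of members with different names had an alignment score near these, the next score being 12, against 97 and 108. GGAAGT occurred in the upstream sequence of each of the 6 genes, Ms4a7 and Ms4a4d included, in 6 of their 7 windows (the second Ms4a7 window had no match), and in 19.7% of all 32851 upstream windows of the same length. The matches of Ms4a4b, Ms4a4c and Ms4a6c began 19, 15 and 16 bases before the start, and that of Ms4a4d 221 bases before it. TGGGAA, a core shared by the Ikaros and CSL binding motifs, occurred in the window of Ms4a6c only, and in 21.6% of all windows. GAAA, any 2 bases and GAAA again, the core of interferon response elements, was in none of the 6 and in 2.98% of all windows. The motifs were chosen after the sequences were seen, both strands were searched, and a match is not a measured binding site.

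The values are MAS5 intensities, 1 number per probe set and array, with a trimmed mean of 100 on every array. Differences between groups are Notch1f/f minus Notch1+/+ after 16 was added and log2 taken, log2(intensity + 16), so changes of dim probe sets come out too small. The added 16 keeps values near the background from spreading widely, and different probe sets cannot be compared in level. Of the 16 probe sets, 10, from 7 genes, were bright enough to pass a filter at the 40th percentile of the mean log2 value (an intensity of about 7.60), while 6 did not, including the only one of Ms4a4d. The precision of every value is limited by the 3 arrays per group. Across the array, 5 of 27026 probe sets (0.0185%) passed an adjusted p of 0.05 in limma. Of the 10 Ms4a probe sets that passed the filter, 0 were among them, and the other 6 were not in that fit. This is given as background only, since the members were picked on this contrast.

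Of the 8 genes, 5 had a probe set with higher values in every Notch1f/f tumour, and the T cell members Ms4a4b and Ms4a6b differed most. In 8 of the 16 probe sets, which belong to Ms4a4b, Ms4a6b, Ms4a6c, Ms4a6d and Ms4a7, all 3 Notch1f/f tumours lay above all 3 Notch1+/+ tumours, and in the other 8 the groups overlapped. The same held for 8.13% of all tested probe sets. None of the 16 had all Notch1f/f tumours below the Notch1+/+ tumours, against 10.4% of all tested probe sets. In 4 of the 8 the log2 difference was also at least 1, a 2-fold change, which held for 1.17% of all tested probe sets. The median log2 difference was 0.47 over the 16 probe sets and 0.90 over the 10 that passed the filter, beside -0.04 over all tested probe sets. These counts are not evidence for the family, since its members were picked on this contrast, and the brighter probe sets passed partly through the group where they were high.

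**Figure D1:**
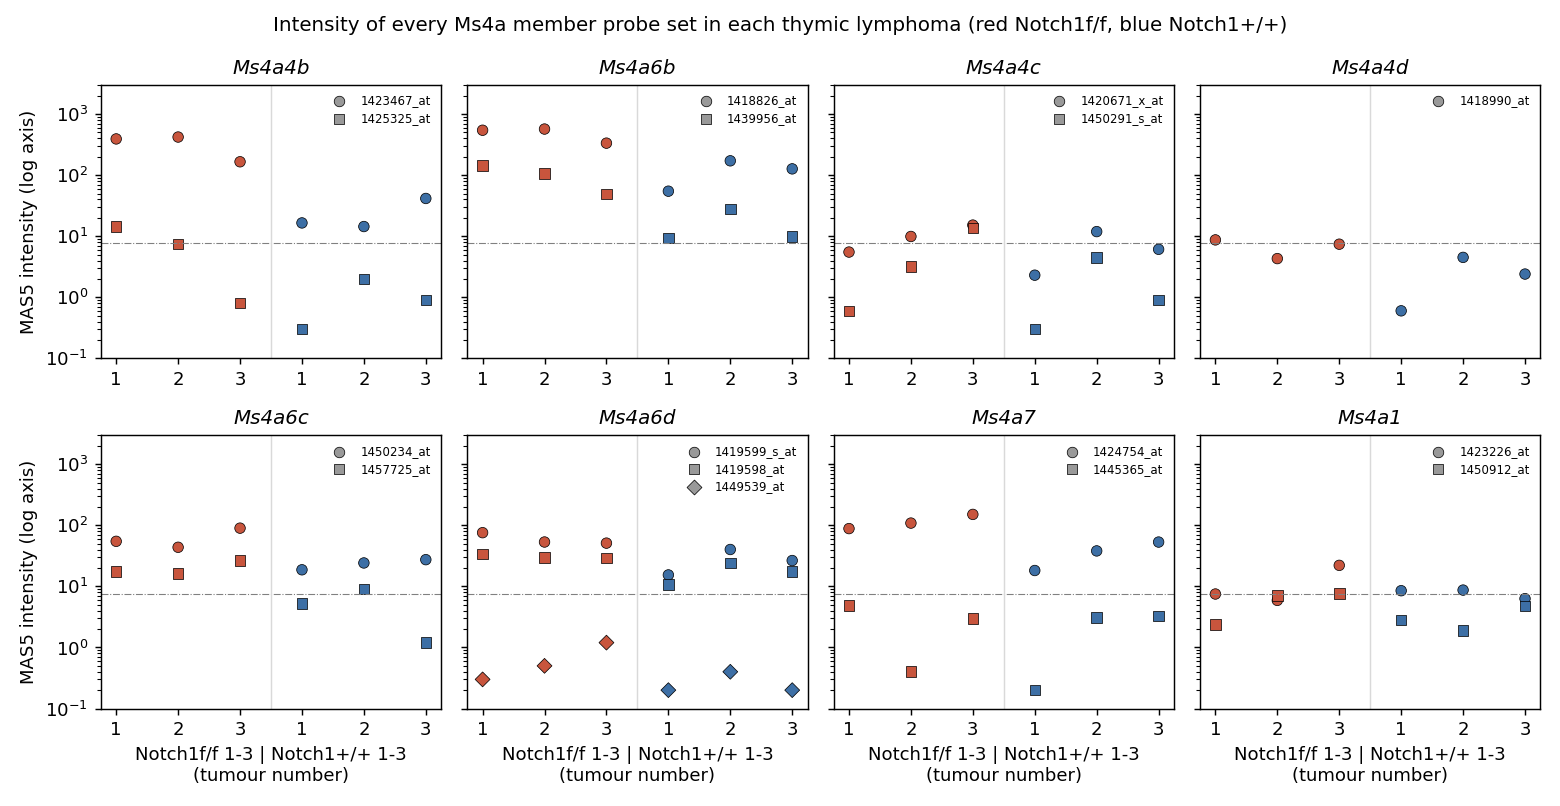
MAS5 intensity (vertical log axis) of all 16 probe sets in the 3 Notch1f/f tumours (red) and the 3 Notch1+/+ tumours (blue), 1 panel per gene and 1 symbol shape per probe set. The dash-dotted line marks the intensity of 7.60 that corresponds to the filter. Ms4a4b, Ms4a6b, Ms4a6c, Ms4a6d and Ms4a7 each have a probe set whose red points all lie above the blue ones, while those of Ms4a4c, Ms4a4d and Ms4a1 overlap.

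Ms4a4b, a T cell protein that associates with GITR, had intensities of 391.7, 420.6 and 165.5 in Notch1f/f tumours 1, 2 and 3, against 16.5, 14.4 and 41.5 in Notch1+/+ tumours 1, 2 and 3, by probe set 1423467_at. The groups lay well apart, with Notch1f/f tumour 3 the lowest of its group and Notch1+/+ tumour 3 the highest of its own. Means were 326 ± 140 in the Notch1f/f tumours against 24.1 ± 15.1 in the Notch1+/+ tumours (SD, n = 3 each), and the log2 difference was 3.05 ± 0.39 (SE). It ranked 7 among the 27026 tested probe sets by size of the higher differences. With a pseudocount of 1 or 64 in place of 16 the difference was 3.74 or 2.08, and with the mean of both Ms4a4b probe sets 1.74. The other Ms4a4b probe set, 1425325_at, was dim, at 14.5, 7.4 and 0.8 in the Notch1f/f tumours against 0.3, 2.0 and 0.9 in the Notch1+/+ tumours. It did not pass the filter, and its groups overlapped through Notch1f/f tumour 3.

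Ms4a6b, the other T cell member that joins GITR, had intensities of 543.4, 568.5 and 334.1 in the Notch1f/f tumours, against 54.6, 171.6 and 126.7 in the Notch1+/+ tumours, by probe set 1418826_at. Notch1f/f tumour 3 was again the lowest of its group, and the groups did not overlap. The means were 482 ± 129 in the Notch1f/f tumours against 118 ± 59.0 in the Notch1+/+ tumours, with a log2 difference of 1.97 ± 0.37 (SE). Its second probe set, 1439956_at, had 143.1, 106.0 and 48.7 in the Notch1f/f tumours against 9.3, 27.8 and 9.9 in the Notch1+/+ tumours. Both probe sets thus had the same lowest Notch1f/f tumour and the same highest Notch1+/+ tumour, tumour 2. The log2 difference of the second was 1.82 ± 0.37, and 1.00 with a pseudocount of 64.

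Ms4a7, known from macrophages, had intensities of 88.4, 108.8 and 150.9 in the Notch1f/f tumours, against 18.2, 38.1 and 53.2 in the Notch1+/+ tumours, by probe set 1424754_at. Here Notch1f/f tumour 3 was the highest of its group, unlike in Ms4a4b and Ms4a6b, and Notch1+/+ tumour 1 was the lowest of all. The means were 116 ± 31.9 in the Notch1f/f tumours against 36.5 ± 17.6 in the Notch1+/+ tumours, with a log2 difference of 1.36 ± 0.32 (SE). It was 0.84 with a pseudocount of 64 and 0.70 with the mean of both Ms4a7 probe sets. The other Ms4a7 probe set, 1445365_at, reached at most 4.9 on any array and did not pass the filter.

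Ms4a6c, a monocyte and macrophage member, had intensities of 54.7, 43.7 and 89.9 in the Notch1f/f tumours, against 18.7, 24.2 and 27.4 in the Notch1+/+ tumours, by probe set 1450234_at. Its second probe set, 1457725_at, had 17.6, 16.2 and 26.6 in the Notch1f/f tumours against 5.2, 9.0 and 1.2 in the Notch1+/+ tumours. Both placed Notch1f/f tumour 3 highest, as Ms4a7 did, and neither had overlapping groups. The log2 differences were 0.96 ± 0.28 and 0.78 ± 0.21 (SE). With a pseudocount of 64 they were 0.52 and 0.28, and with 1 the second was 2.01.

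Ms4a6d, a further member known from macrophages, had intensities of 75.8, 53.3 and 51.1 in the Notch1f/f tumours, against 15.4, 40.2 and 26.5 in the Notch1+/+ tumours, by probe set 1419599_s_at. The suffix s in its name marks a probe set whose probes can match transcripts of more than 1 gene, so signal of a close relative cannot be told apart from its own. The more specific probe set 1419598_at had 34.1, 29.6 and 29.2 in the Notch1f/f tumours against 10.7, 24.2 and 17.4 in the Notch1+/+ tumours. The groups did not overlap in either, but in the second the lowest Notch1f/f tumour and the highest Notch1+/+ tumour were close. The log2 differences were 0.84 ± 0.28 and 0.51 ± 0.23 (SE). With a pseudocount of 64 they were 0.44 and 0.22, with 1 the second was 0.86, and the mean over the gene's probe sets gave 0.46. The third, 1449539_at, reached at most 1.2 on any array.

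Ms4a4c and Ms4a4d, both close relatives of Ms4a4b by name and place, had low values in both groups. Ms4a4c had 5.5, 9.9 and 15.2 in the Notch1f/f tumours against 2.3, 11.9 and 6.1 in the Notch1+/+ tumours by probe set 1420671_x_at, whose suffix x marks probes that can bind related transcripts. The groups overlapped, and the log2 difference was 0.21 ± 0.22 (SE). Its other probe set, 1450291_s_at, lay under the filter and overlapped as well, with its highest value of 13.6 in Notch1f/f tumour 3. Ms4a4d had 8.7, 4.3 and 7.4 in the Notch1f/f tumours against 0.6, 4.5 and 2.4 in the Notch1+/+ tumours. It overlapped through Notch1f/f tumour 2 and Notch1+/+ tumour 2. Ms4a4c, which is alike upstream to Ms4a4b, thus had overlapping groups where Ms4a4b did not, but its values lay near the filter, where a difference is compressed. A link between upstream sequence and values was not tested.

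Ms4a1, the gene of CD20, had 7.5, 5.9 and 22.1 in the Notch1f/f tumours against 8.5, 8.7 and 6.3 in the Notch1+/+ tumours by probe set 1423226_at. Notch1f/f tumour 3 stood alone above the other 5 tumours, and the groups overlapped. The log2 difference was 0.18 ± 0.23 (SE), and -0.07 without Notch1f/f tumour 3. The second Ms4a1 probe set, 1450912_at, did not pass the filter and reached at most 7.6, also in Notch1f/f tumour 3.

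The members fell into different orders over the Notch1f/f tumours. Ms4a4b and both tested Ms4a6b probe sets were lowest in tumour 3, and so were both tested probe sets of Ms4a6d, just below tumour 2. Ms4a7, both Ms4a6c probe sets and the tested probe sets of Ms4a4c and Ms4a1 were highest in tumour 3. The likeness of profiles was measured as the root mean square difference of log2 values, each centred on its mean over the 6 tumours, with the brightest probe set of each gene. By this measure Ms4a6c and Ms4a7 differed by 0.32, Ms4a4b and Ms4a6b by 0.74, and Ms4a6b and Ms4a7 by 0.58. The pairs that were alike upstream differed by 1.56 (Ms4a4b and Ms4a4c) and by 0.78 (Ms4a6b and Ms4a6c). The 1.56 is close to the root mean square of Ms4a4b around its own mean, 1.61, since Ms4a4c was dim and nearly flat. The measure is smaller between profiles of small range, and the 6 points share their arrays and genotype groups.

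**Figure D2:**
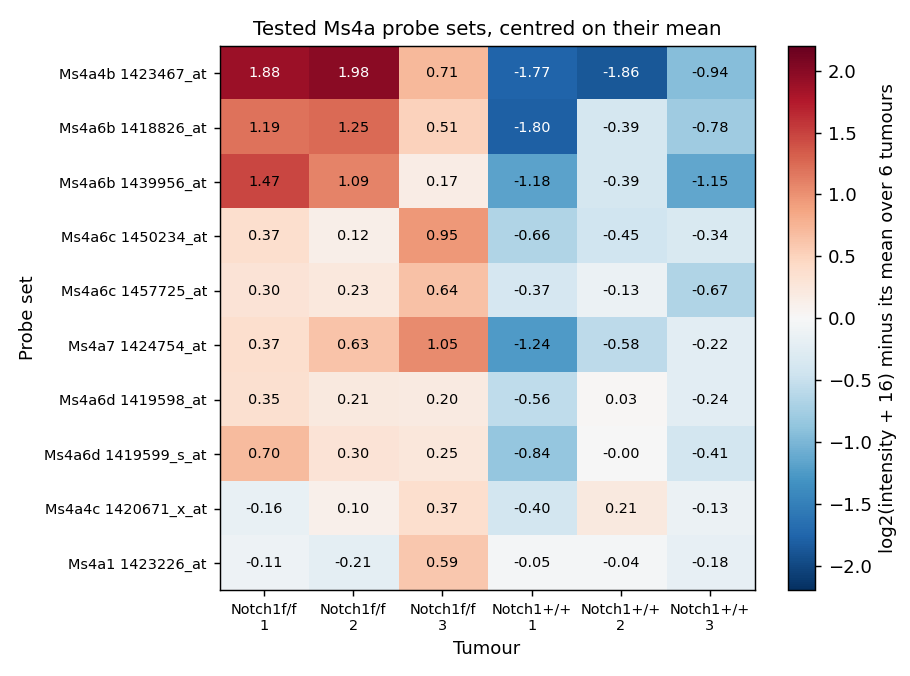
Log2(intensity + 16) minus its mean over the 6 tumours (colour and printed number) for the 10 probe sets that passed the filter, with Notch1f/f tumours in the left columns and Notch1+/+ tumours in the right ones. Ms4a4b and Ms4a6b have their lowest Notch1f/f value in tumour 3, at 0.71, 0.51 and 0.17, while Ms4a6c and Ms4a7 have their highest there, at 0.95, 0.64 and 1.05.

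By the same measure over the 6 tumours, the nearest genes outside the family were listed for each member. For Ms4a4b they were Tubb2b, a beta-tubulin, at a distance of 0.43, Bambi-ps1 at 0.46 and Lama3, a laminin chain, at 0.70. Tubb2b had 1534.7, 1373.1 and 1254.6 in the Notch1f/f tumours against 218.5, 137.9 and 251.0 in the Notch1+/+ tumours, and so lacked the much lower value of Ms4a4b in Notch1f/f tumour 3. For Ms4a6b they were Trim30a at 0.25, Evl, an actin regulator, at 0.32 and Abca1, a cholesterol exporter, at 0.35. Trim30a had 266.2, 319.9 and 175.1 in the Notch1f/f tumours against 44.8, 114.6 and 73.8 in the Notch1+/+ tumours, which is the order of Ms4a6b in all 6 tumours. For Ms4a7 they were Ifi27l2a at 0.15, Mpeg1, which encodes a pore-forming protein of macrophages, at 0.16 and the chemokine gene Ccl6 at 0.18. Mpeg1 had 161.2, 176.7 and 299.0 in the Notch1f/f tumours against 33.6, 89.4 and 87.1 in the Notch1+/+ tumours. The nearest of Ms4a6c were Nop53, Frg1 and Lpcat2, each at 0.09, and those of Ms4a6d were Lmna at 0.08, Anpep at 0.11 and Tgfbi at 0.13. The profiles of Ms4a1 and Ms4a4c were so flat that genes with a small range lay within 0.06 of them (Ergic3, Zbtb20 and Hps1 for Ms4a1, and Cltb, Ube2d3 and Gm2a for Ms4a4c).

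The rest of the family was at or near the bottom of the scale in both groups. The 9 other Ms4a genes with a named probe set (Ms4a2, Ms4a3, Ms4a8a, Ms4a10, Ms4a13, Ms4a15, Ms4a18, Ms4a19 and Ms4a20) had 10 probe sets, none above an intensity of 16.2 on any array. Of these, 2 passed the filter, Ms4a15 with a log2 difference of -0.14 ± 0.23 and Ms4a3, a gene of granulocyte precursors, with -0.04 ± 0.19. The structurally related Tmem176a and Tmem176b were brighter. Tmem176b had 177.7, 143.4 and 185.9 in the Notch1f/f tumours against 83.0, 234.2 and 355.7 in the Notch1+/+ tumours, with overlapping groups, and the 3 probe sets of Tmem176a overlapped too. None of these 6 tested probe sets passed limma (adjusted p from 0.71 to 0.935), and 0 had an unadjusted p under 0.05.

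The genes on both sides of the 8 along chromosome 19 were counted next. Of the 20 nearest genes with a named probe set, 10 were on each side and 9 were the other Ms4a genes. Of the 20, 9 passed the filter, and 0 of these had groups free of overlap. Of all tested probe sets, 8.13% were higher and 10.4% lower without overlap. With only 9 genes, a count of 0 does not set them apart from the array. Among those under the filter, Oosp2 was higher and Ms4a18 and 4930526L06Rik were lower in all Notch1f/f tumours. Of the 9 tested genes, 0 passed limma at an adjusted p of 0.05, with 1 at an unadjusted p under 0.05. Their median log2 difference was -0.04, equal to that of all tested probe sets. Patl1, an mRNA decay factor, had a log2 difference of -0.13 ± 0.21 (limma adjusted p = 0.808) and Mrpl16, a mitochondrial ribosomal protein, -0.17 ± 0.24 (0.781). AW112010 had 0.56 ± 0.34 (0.483) and Ccdc86, at the far end, -0.67 ± 0.28 (0.35).

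**Figure D3:**
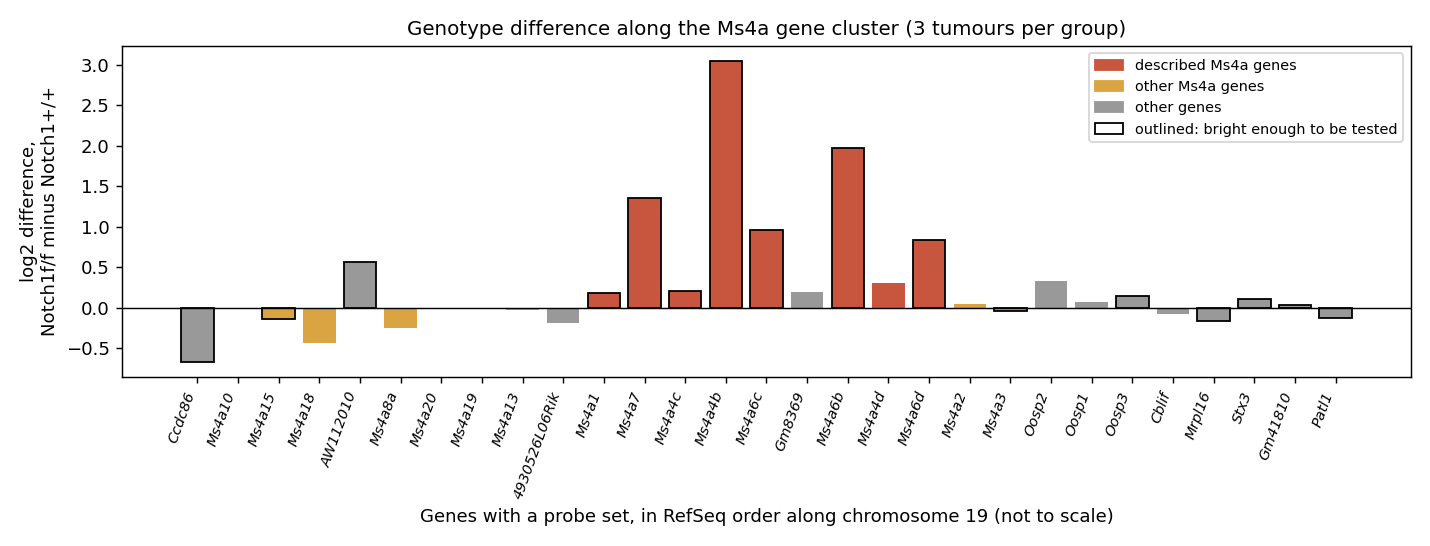
Log2 difference (Notch1f/f minus Notch1+/+, 3 tumours each) of the brightest probe set of each gene, in RefSeq order along chromosome 19, with no distances. The 8 described genes (red) have differences from 0.18 at Ms4a1 to 3.05 at Ms4a4b, while the other Ms4a genes (yellow) lie at 0.04 or below and the tested flanking genes (outlined grey) from -0.67 to 0.56.

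T lineage genes were bright in all 6 tumours. Cd3e, a chain of the T cell receptor complex, had 2001.0, 1647.5 and 2852.8 in the Notch1f/f tumours against 1276.8, 1399.7 and 1635.6 in the Notch1+/+ tumours. Neither Notch1 probe set was lower in the Notch1f/f tumours, with 2026.2, 1346.2 and 2211.5 in the Notch1f/f tumours against 1792.5, 655.9 and 567.9 in the Notch1+/+ tumours for 1418633_at (limma adjusted p = 0.319) and a log2 difference of 0.13 ± 0.16 (limma adjusted p = 0.752) for 1418634_at. Where these probe sets lie relative to the deleted part is not given in the sources used here, so they do not check the genotype.

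Marker genes of blood and stroma cells, interferon response genes and genes of receptors that Ms4a proteins join were counted next. They formed 11 lists, with each gene represented by its brightest probe set. Of 78 list genes that passed the filter, 0 passed limma at an adjusted p of 0.05, while 29 had an unadjusted p under 0.05, of which 25 had higher and 4 lower values in the Notch1f/f tumours. Of all tested probe sets, 5.94% were higher and 7.6% lower at that p. The lists were chosen with earlier results of these data known. Their counts, here and for each list below, are therefore descriptions and not evidence about a cell type. Each list gene is also counted by its brightest probe set, while the shares are over single probe sets. In the macrophage and monocyte list, 5 of 13 tested genes had groups that did not overlap, each higher in the Notch1f/f tumours, beside the 8.13% of all tested probe sets, and the median log2 difference was 0.82, beside -0.04. Its 14 genes on the array summed to 1493 to 2904 in the Notch1f/f tumours, highest in tumour 3, and to 286.5 to 990.4 in the Notch1+/+ tumours, lowest in tumour 1. Csf1r, the receptor of macrophage growth factor, had 198.5, 205.5 and 223.4 in the Notch1f/f tumours against 38.3, 118.3 and 129.8 in the Notch1+/+ tumours (limma adjusted p = 0.295). C1qb, a complement gene of macrophages, had 278.7, 235.0 and 472.7 in the Notch1f/f tumours against 20.4, 117.8 and 148.6 in the Notch1+/+ tumours (limma adjusted p = 0.275). Adgre1, the F4/80 antigen of macrophages, did not share this separation. It had 16.9, 27.9 and 36.6 in the Notch1f/f tumours against 19.2, 51.9 and 31.2 in the Notch1+/+ tumours. Of the 13 tested genes of the list, 9 had a positive log2 difference. It was negative for Vsig4 (-0.51), Itgam (-0.32), Ccr2 (-0.20) and Adgre1 (-0.19).

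The macrophage list had the same lowest tumour of all 6, Notch1+/+ tumour 1, and the same highest one, Notch1f/f tumour 3, as Ms4a7. To show what remained beside it, each Ms4a log2 value was also taken relative to the mean log2 level of the 13 tested macrophage genes on the same array, a measure added after the data were seen. The macrophage mean itself differed by 0.70 between the genotypes. On this scale Ms4a4b differed by 2.35 and Ms4a6b (1418826_at) by 1.27, both with groups that did not overlap. The second Ms4a6b probe set differed by 1.12, but its groups overlapped, because Notch1f/f tumour 3 lay below Notch1+/+ tumours 1 and 2. Ms4a7 differed by 0.66 with no overlap. The 2 probe sets of Ms4a6c differed by 0.26 and 0.08 and those of Ms4a6d by 0.14 and -0.19, all with overlapping groups. A dim probe set is compressed by the added 16 more than a bright one, so these differences do not show that a gene did or did not follow the macrophage genes.

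**Figure D4:**
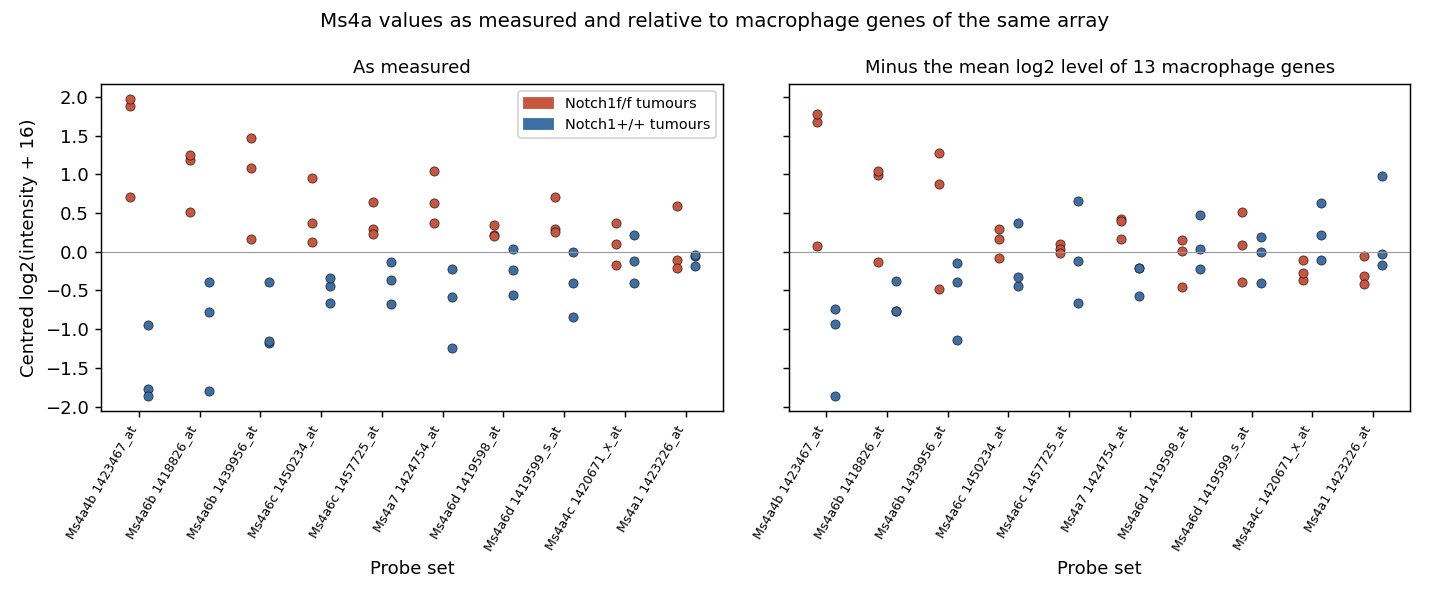
Left, log2(intensity + 16) of the 10 tested Ms4a probe sets centred on the mean of the 6 tumours, and right, the same after the mean log2 level of 13 macrophage genes was subtracted on each array, with Notch1f/f tumours in red and Notch1+/+ tumours in blue. On the right the groups stay apart for Ms4a4b, Ms4a6b (1418826_at) and Ms4a7 and overlap for both probe sets of Ms4a6c and of Ms4a6d.

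Genes of mature T cells, which Ms4a4b and Ms4a6b accompany in normal T cells, had 4 of 8 tested members free of overlap, each higher in the Notch1f/f tumours. Of all tested probe sets, 8.13% were higher without overlap. The median log2 difference of the list was 0.99, beside -0.04 over all tested probe sets. Ccr7, a homing receptor of naive T cells, had 61.8, 55.2 and 93.6 in the Notch1f/f tumours against 1.0, 0.5 and 16.9 in the Notch1+/+ tumours (limma adjusted p = 0.0982, and 0.0399 to 0.363 under the alternatives). S1pr1, the receptor for exit from the thymus, had 67.5, 49.1 and 72.1 in the Notch1f/f tumours against 6.4, 16.7 and 27.6 in the Notch1+/+ tumours (limma adjusted p = 0.202). Slfn1 had 29.8, 61.2 and 26.2 in the Notch1f/f tumours against 6.5, 7.4 and 11.5 in the Notch1+/+ tumours. Il7r, the IL-7 receptor, had a negative log2 difference, -0.49, with 170.7, 277.7 and 195.9 in the Notch1f/f tumours against 86.8, 495.1 and 598.9 in the Notch1+/+ tumours. Klf2, a factor of resting T cells, was highest in Notch1f/f tumour 3, at 946.1, where Ms4a4b was at its Notch1f/f lowest. Relative to the mean of the 8 mature T cell genes, which itself differed by 0.96, Ms4a4b differed by 2.09 and Ms4a6b (1418826_at) by 1.02, both free of overlap. Ms4a7 differed by 0.41, also free of overlap, while the second Ms4a6b probe set differed by 0.86 with overlapping groups. On that scale Ms4a1 and Ms4a4c differed by -0.78 and -0.75, with all Notch1f/f tumours below all Notch1+/+ tumours. For Ms4a1 the groups were barely apart, at -0.03 in Notch1f/f tumour 3 and -0.00 in Notch1+/+ tumour 3. Before the list mean was subtracted, Ms4a1 and Ms4a4c differed by 0.18 and 0.21, so the negative signs come from the 0.96 of the list. Both genes were dim, and differences of dim probe sets are compressed. These values therefore do not show that either gene was lower in the Notch1f/f tumours. Relative to the 11 T lineage genes, which differed by 0.27, 6 of the 10 tested Ms4a probe sets were free of overlap. They were those of Ms4a4b (2.78), Ms4a6b (1.70 and 1.54), Ms4a7 (1.09) and Ms4a6c (0.69 and 0.51). The gap was small for the second Ms4a6c probe set, at 0.04 in Notch1f/f tumour 2 and -0.07 in Notch1+/+ tumour 2. The share of all probe sets free of overlap was not computed on these relative scales, and the members were picked on this contrast. The count is therefore a description only.

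Tnfrsf18, the gene of the GITR receptor that the Ms4a4b and Ms4a6b proteins join, had 31.2, 51.7 and 61.8 in the Notch1f/f tumours against 18.9, 151.4 and 66.2 in the Notch1+/+ tumours. Its groups overlapped, with a log2 difference of -0.32 ± 0.50 (limma adjusted p = 0.808). In the partner list, 2 of 4 tested genes had no overlap, both higher in the Notch1f/f tumours, beside 8.13% of all tested probe sets. They were Fcer1g, the signalling chain of Fc receptors, and Clec7a, the fungal receptor Dectin-1 of myeloid cells. Clec7a had 31.0, 100.5 and 210.2 in the Notch1f/f tumours against 11.8, 25.4 and 22.4 in the Notch1+/+ tumours (limma adjusted p = 0.29). Tnfrsf18 and Cd40 (-0.30), also tested, had negative log2 differences and overlapping groups. Fcer1a reached at most 3.2 on any array. Among regulatory and activated T cell genes, 2 of 7 had no overlap, Ctla4 and Icos, both higher, beside 8.13% of all tested probe sets. Ctla4, an inhibitory receptor of activated T cells, had 543.0, 493.3 and 990.0 in the Notch1f/f tumours against 62.1, 8.5 and 125.2 in the Notch1+/+ tumours (limma adjusted p = 0.117, and 0.0399 to 0.384 under the alternatives). Foxp3, which defines regulatory T cells, stayed between 6.8 and 10.9 on every array.

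B cell genes had 3 of 7 tested genes free of overlap, each higher in the Notch1f/f tumours, beside 8.13% of all tested probe sets. Their median log2 difference was 0.65, beside -0.04 over all tested probe sets. Cd79a, part of the B cell receptor, had 15, 12.1 and 121.4 in the Notch1f/f tumours against 7.3, 6.7 and 9.8 in the Notch1+/+ tumours, and so stood out in Notch1f/f tumour 3 as Ms4a1 did. Pax5, the B lineage factor, had 22.9 in that tumour and at most 7.0 in the other 5. Not every gene of the list stood out there. Cd79b was highest in Notch1f/f tumour 2, with 37.0, 64.8 and 52.1 in the Notch1f/f tumours against 7.6, 26.4 and 18.7 in the Notch1+/+ tumours. Blnk had 48.3, 46.6 and 55.2 in the Notch1f/f tumours against 50.5, 23.9 and 15.5 in the Notch1+/+ tumours, with overlapping groups. Cr2 reached at most 5.9. The list's sum was 1350 to 3553 in the Notch1f/f tumours, highest in tumour 3, and 372.4 to 1119 in the Notch1+/+ tumours, most of it from Ighm, whose transcripts thymocytes can also make. The part of these cells in the Ms4a1 value was not tested.

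The dendritic cell list had 2 of 4 tested genes free of overlap, Cd74 and H2-Aa, both highest in Notch1f/f tumour 3, at 1829.8 and 1223.3. Its sum was 361.5 to 3164 in the Notch1f/f tumours against 102.7 to 364.4 in the Notch1+/+ tumours, most of it from these 2 genes. Itgax, also tested, had 22.1, 19.7 and 64.8 in the Notch1f/f tumours against 4.9, 20.7 and 4.2 in the Notch1+/+ tumours, with overlapping groups. Xcr1 and Cd209a, markers of dendritic cell types, stayed under 10 on every array. Flt3, Siglech and Zbtb46 of the same list reached 18.4, 12.8 and 13.4, with overlapping groups. The interferon list had 5 of 7 tested genes free of overlap, each higher, with a median log2 difference of 0.49. Rsad2 had 72.8, 44.8 and 37.4 in the Notch1f/f tumours against 4.9, 20.2 and 24.0 in the Notch1+/+ tumours, while Usp18 had 13.7, 75.4 and 29.5 in the Notch1f/f tumours against 415.1, 325.4 and 14.2 in the Notch1+/+ tumours. The T lineage list had 2 of 11 free of overlap (median 0.37), and the NK and cytotoxic list 1 higher and 1 lower of 5 (median -0.00). The lower one was Tbx21, the gene of T-bet, at 4.3, 5.3 and 1.0 in the Notch1f/f tumours against 54.2, 34.4 and 33.6 in the Notch1+/+ tumours (limma adjusted p = 0.0952, and 0.0657 to 0.356 under the alternatives). The higher one was Gzma, at 2795.7, 2711.2 and 4450.7 in the Notch1f/f tumours against 1593.7, 2414.1 and 1583.9 in the Notch1+/+ tumours (limma adjusted p = 0.281). Klrd1, under the filter, was also higher, at 9.6, 14.6 and 12.8 in the Notch1f/f tumours against 1.2, 3.6 and 2.6 in the Notch1+/+ tumours. Ncr1, Gzmb and Eomes stayed under 10 on every array. The neutrophil list had 0 higher and 2 lower of 6 (median -0.45), and the stroma list 0 of 7 (median -0.06). Beside these counts, 8.13% of all tested probe sets were higher and 10.4% lower without overlap. The T lineage, NK and stroma lists are too short for their counts to be set apart from those shares. How far any of these cell types contributed to the Ms4a values was not tested.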

How the data were processed

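Each of the 6 tumours had 1 array. The authors deposited linear MAS5 intensity values, as named in the submitters' processing notes without a version. All arrays share a mean of 100 once the top and bottom 2% of values are set aside. Gene symbols came from the platform's annotation table, in which 34945 probe sets had 1 symbol, 932 had several and 9160 had none.

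To each intensity 16 was added and log2 taken. Leaving out 64 control probe sets and those with a mean below the 40th percentile (4.56) left 27026. The test was limma 3.58.1 (R 4.3.3; lmFit, then eBayes with an intensity trend), two-sided, with Benjamini-Hochberg adjustment over all tested probe sets and no covariate. The fit was tested on simulated data with known changes. Where nothing says otherwise, values after ± are SD (n = 3) for intensities and SE from this fit for log2 differences.

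The members and the gene lists were chosen with earlier results of these data known. Text names every member, the tested family genes, for each list genes with the highest means or the smallest p-values, also Tnfrsf18, Csf1r, Cd3e and Notch1, and the 3 nearest profiles per member. Pax5, Cr2, Adgre1, Vsig4, Itgam, Ccr2, Fcer1a, Klrd1, Ncr1, Gzmb and Eomes fall outside that rule. So do Xcr1, Cd209a, Flt3, Siglech, Zbtb46, Oosp2, Ms4a18 and 4930526L06Rik. All of these were chosen after their values were seen. Tumours were numbered in accession order, and the labels give no pairing. Alternatives were quantile normalisation, centring on the array median, pseudocounts of 1 and 64, all probe sets or those above the 60th percentile, a fit with no trend, each tumour left out, and the mean over a gene's probe sets. Upstream sequences were aligned with Biopython 1.88, and figures drawn with matplotlib 3.10.9.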

Additional observations from a re-analysis of the deposited data

How the results depend on the processing

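No paired analysis was possible because the labels number no tumours across the genotypes. The count of Ms4a probe sets whose groups did not overlap was 8 to 10 with each tumour left out and 10 with median centring. Leaving out a tumour cannot make separate groups overlap, so the first of these counts could only stay or rise and shows no robustness. Of 216 recomputed log2 differences of the 16 probe sets, 191 moved by less than 1 SD between replicates and 25 by more, of which 13 came with a pseudocount of 1 and 8 with 64, 3 with probe sets averaged per gene and 1 with median centring, and 0 changed sign among those whose groups did not overlap. Relative to the mature T cell genes, added after the data were seen, Ms4a6d reached -0.45 (1419598_at) and -0.12 (1419599_s_at) and Ms4a6c -0.18 (1457725_at), and relative to the macrophage genes Ms4a6d had -0.19 (1419598_at). The cause was not tested. With each tumour left out, Ms4a4b (1423467_at) ranged from 2.82 to 3.46 and Ms4a6b (1418826_at) from 1.57 to 2.27. The count of all probe sets past an adjusted p of 0.05 in limma was 11 with median centring, 3 with no filter, and 2 to 14 with a tumour left out (among the Notch1f/f tumours, leaving out tumour 1, 2 or 3 gave 3, 12 or 2, and leaving out Notch1+/+ tumour 3 gave 14). The count of list genes past it was 0 to 2 with a tumour left out, the 2 being Ccr7 and Ctla4 without Notch1+/+ tumour 3. The counts of other Ms4a family and flanking genes stayed at 0 in every alternative run. Signal over background limits Ms4a4c, Ms4a4d and Ms4a1, whose values lay near or below the filter on most arrays.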
